A study of Mus musculus with 12 samples.

Results

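Padi4, Ldhd, Mctp2, Rnpep, Rsl1, Gphn, Cnr2, Shisa6, Palmd and Zfp518b are 10 of the 19309 genes measured in mouse thymic lymphomas with and without Dnmt3a. They were picked from the comparison of these lymphomas, as genes that separate Dnmt3a-deficient from control tumors, and in each the groups do not overlap, so that difference is a description here and carries no test. Each gene has 1 single-symbol probe set on the array, so the rule of taking the brightest probe set left nothing to choose. RNA came from thymus of FVB/N mice on 12 arrays. They hold 4 tumors with the genotype Dnmt3a-deficient and 5 control tumors with the genotype wild type, both at the terminal stage. The remaining 3 arrays hold normal thymocytes with the genotype wild type, at an age given as 24 dpn. In the study's description the tumors were T-cell lymphomas that arose in the presence of MYC, with Dnmt3a deleted in the hematopoietic compartment. The promoter of the MYC transgene, the Cre that removed Dnmt3a and the number of animals behind an array are not stated in the labels, so a p-value here speaks only for the spread among the arrays at hand. Tumor state, age and any batch cannot be told apart in a comparison with normal thymocytes. In such bulk RNA, fewer cells of a type and less RNA per cell cannot be told apart either.

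DNMT3A is a de novo DNA methyltransferase: it places methyl groups on cytosines of CpG dinucleotides, and dense methylation of a promoter generally goes with a silent gene. MYC is a transcription factor that drives growth and division and that binds the E-box sequence CACGTG. Padi4, Ldhd and Rnpep encode enzymes, Mctp2, Gphn, Cnr2, Shisa6 and Palmd encode proteins of membranes, receptors or the cell cortex, and Rsl1 and Zfp518b encode zinc finger proteins. DNA methylation was not measured on these arrays.

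Dnmt3a read 7.33, 7.62, 7.19 and 7.53 in deficient tumors 1 to 4, against 8.58, 8.52, 8.48, 8.19 and 9.57 in control tumors 1 to 5 and 9.63, 9.48 and 9.33 in normal thymocytes 1 to 3 (log2 values, as for all levels here). All deficient tumors lay below all other arrays. Their label gives a genotype and not an RNA level, and where the probes lie relative to the deletion is not stated. T lineage markers averaged 9.85 to 10.34 in deficient tumors, 10.08 to 10.73 in control tumors and 11.33 to 11.39 in normal thymocytes over 14 genes. Control tumors 1 and 2 correlated better with the deficient tumors over all genes (0.972 and 0.971) than with the other control tumors (0.956 and 0.951). Neutrophil markers averaged 7.44 and 7.39 in control tumors 3 and 4 over 19 genes, and 5.31 to 5.96 in deficient tumors, 5.61 to 5.84 in the other control tumors and 6.03 to 6.42 in normal thymocytes. Adipocyte markers averaged 8.65 in control tumor 2 over 9 genes and 5.25 to 5.66 in all other tumors. The part these arrays play in each result was not tested, beyond the values given without them.

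By limma's adjusted p under 0.05, 158 of 19309 genes (0.818%) were called between deficient and control tumors, 114 higher (0.590%) and 44 lower (0.228%). All 10 genes are among them, 6 higher and 4 lower, which follows from how they were picked. Ranked by p over all genes they lie between place 5 (Ldhd) and place 78 (Palmd). The groups did not overlap for 1187 genes (6.15%), with the deficient tumors above in 3.80% and below in 2.35%, and 146 of the 1187 were called. With tumors alone in the fit 1 gene was called over the whole table, and it was not one of the 10, whose differences stayed the same. Without control tumors 1 and 2 the fit with normal arrays called 4886 genes and all 10. Without control tumors 3 and 4 it called 6 genes, of which Ldhd, Mctp2 and Palmd are 3. All 10 kept the sign of their difference in every alternative run. Since the tumor groups do not overlap for any of the 10, leaving out or weighting arrays could not turn a sign.

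**Figure D1:**
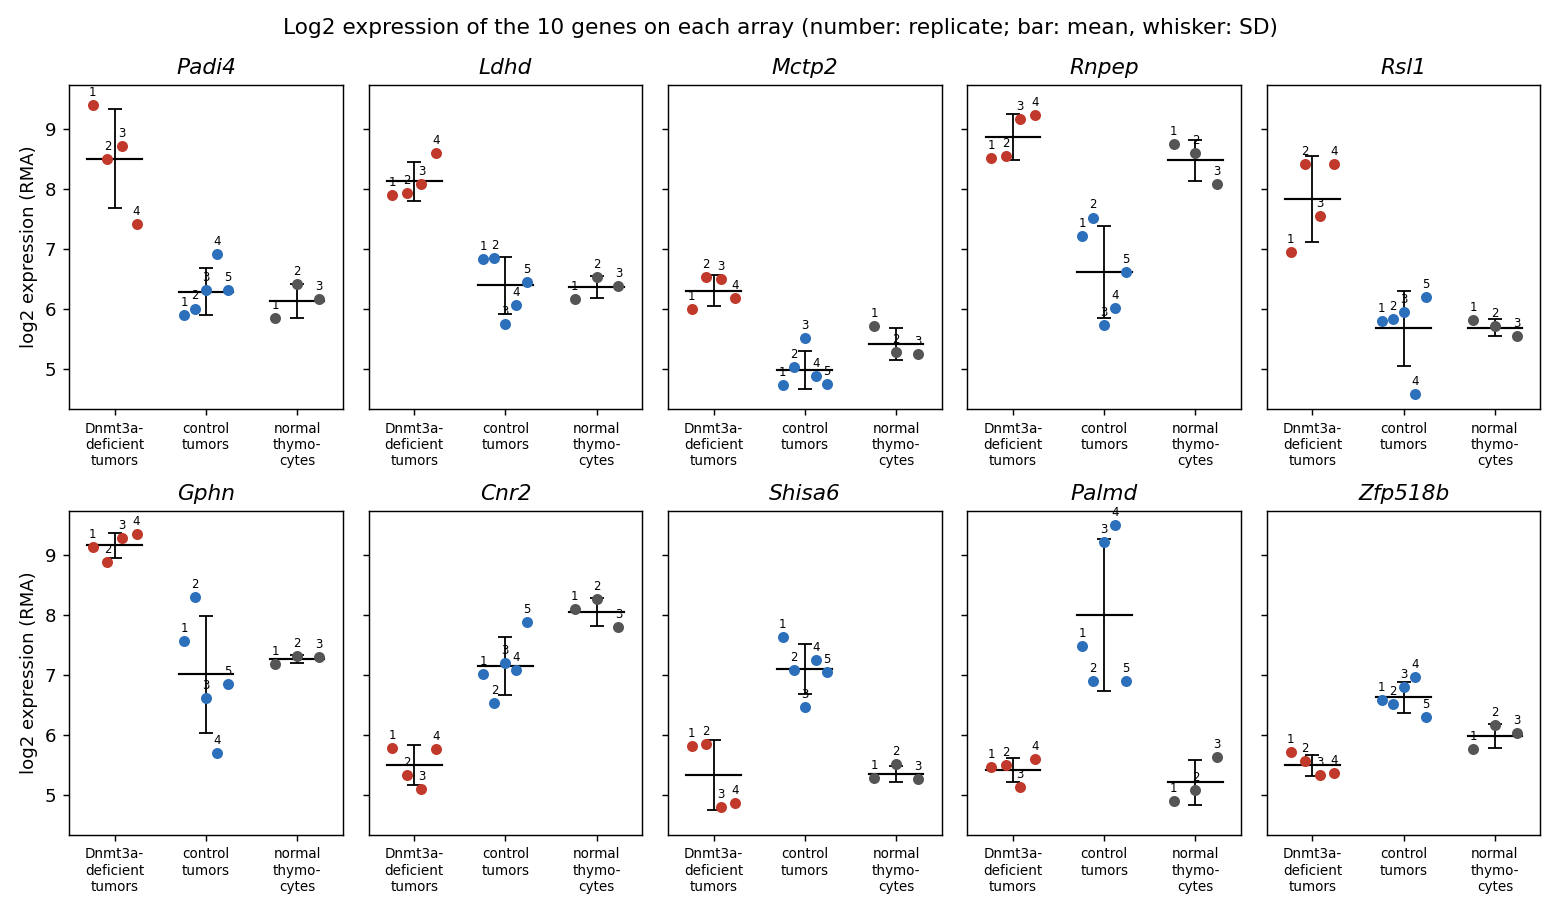
Log2 expression (vertical axis) of each gene on the 12 arrays, with the replicate number above each point, the group mean as a bar and the SD as a whisker; Dnmt3a-deficient tumors (n = 4) stand left, control tumors (n = 5) in the middle and normal thymocytes (n = 3) right. In Padi4, Ldhd, Mctp2, Rsl1 and Gphn the control tumors overlap the normal thymocytes in range and the deficient tumors lie above both. In Shisa6 and Palmd the deficient tumors overlap the normal thymocytes in range and the control tumors lie above both.

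Since the deleted enzyme acts on CpG dinucleotides, the stretches before the transcription starts are shown for the 4 genes whose deficient tumors stood furthest above normal thymocytes, and for Cnr2, whose deficient tumors stood furthest below. The sequences are RefSeq's on GRCm38.p6, the 250 bases before the outermost start listed, 5′ to 3′ on the gene's strand, with every CpG in capitals. They are Padi4 (chr4:140774204-140774453, minus strand), Ldhd (chr8:111630337-111630586, minus strand), Rsl1 (chr13:67172932-67173181, plus strand), Gphn (chr12:78226405-78226654, plus strand) and Cnr2 (chr4:135894939-135895188, plus strand).
Padi4: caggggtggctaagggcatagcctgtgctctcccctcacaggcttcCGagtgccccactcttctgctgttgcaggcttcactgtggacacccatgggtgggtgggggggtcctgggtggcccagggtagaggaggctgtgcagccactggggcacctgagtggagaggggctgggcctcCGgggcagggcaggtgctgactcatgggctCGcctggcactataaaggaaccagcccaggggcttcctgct
Ldhd: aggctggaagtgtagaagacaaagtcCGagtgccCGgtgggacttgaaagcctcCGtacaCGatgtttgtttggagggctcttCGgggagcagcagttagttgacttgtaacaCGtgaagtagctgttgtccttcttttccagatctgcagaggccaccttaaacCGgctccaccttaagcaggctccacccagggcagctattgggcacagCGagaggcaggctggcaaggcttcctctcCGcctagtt
Rsl1: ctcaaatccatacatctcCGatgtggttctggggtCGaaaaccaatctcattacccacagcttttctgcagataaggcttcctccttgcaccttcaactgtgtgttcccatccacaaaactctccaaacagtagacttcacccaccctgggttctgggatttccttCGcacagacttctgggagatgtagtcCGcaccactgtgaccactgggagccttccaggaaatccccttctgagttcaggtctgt
Gphn: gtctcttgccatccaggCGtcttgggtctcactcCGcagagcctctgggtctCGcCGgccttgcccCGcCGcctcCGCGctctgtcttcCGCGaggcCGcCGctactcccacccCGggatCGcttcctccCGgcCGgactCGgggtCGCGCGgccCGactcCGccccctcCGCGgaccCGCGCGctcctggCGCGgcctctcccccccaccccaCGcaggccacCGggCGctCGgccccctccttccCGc
Cnr2: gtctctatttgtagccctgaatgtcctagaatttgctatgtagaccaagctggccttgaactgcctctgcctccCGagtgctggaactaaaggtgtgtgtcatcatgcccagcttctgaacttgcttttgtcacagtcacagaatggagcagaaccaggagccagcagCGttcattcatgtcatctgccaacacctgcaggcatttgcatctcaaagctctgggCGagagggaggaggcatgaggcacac

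These stretches differ widely in CpG. Gphn holds 34 CpGs in the 250 bases, Ldhd 9, Rsl1 4, and Padi4 and Cnr2 3 each. Promoter windows of 300 bases, 250 before to 50 after the start, were listed for 8 of the 10 genes and for 15151 of the genes tested. The median window held 15 CpGs, with quartiles of 5 and 25. In the windows, Gphn had 42 CpGs, Zfp518b 21 and Mctp2 20, all above the median. Rnpep had 14, Ldhd 11, Rsl1 9, Padi4 8 and Cnr2 3, all below it. A ratio of observed to expected CpG above 0.6, a common mark of a CpG island, was met by Gphn (1.04), Mctp2 (0.70) and Zfp518b (0.64), which is 3 of 8 windows, against 53.1% of all windows. Among genes that were higher in deficient tumors, the CpG count ran from the 34.1st percentile of all windows for Padi4 to the 96.3rd for Gphn, and only Gphn lay outside the quartiles. The E-box CACGTG, which reads the same on both strands, occurred in the windows of Padi4 and Ldhd, 2 of 8, against 8.46% of all windows. In Ldhd it lies within the stretch printed above, as caCGtg, and in Padi4 it lies after the start. A match of these letters is no measured binding site.

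**Figure D2:**
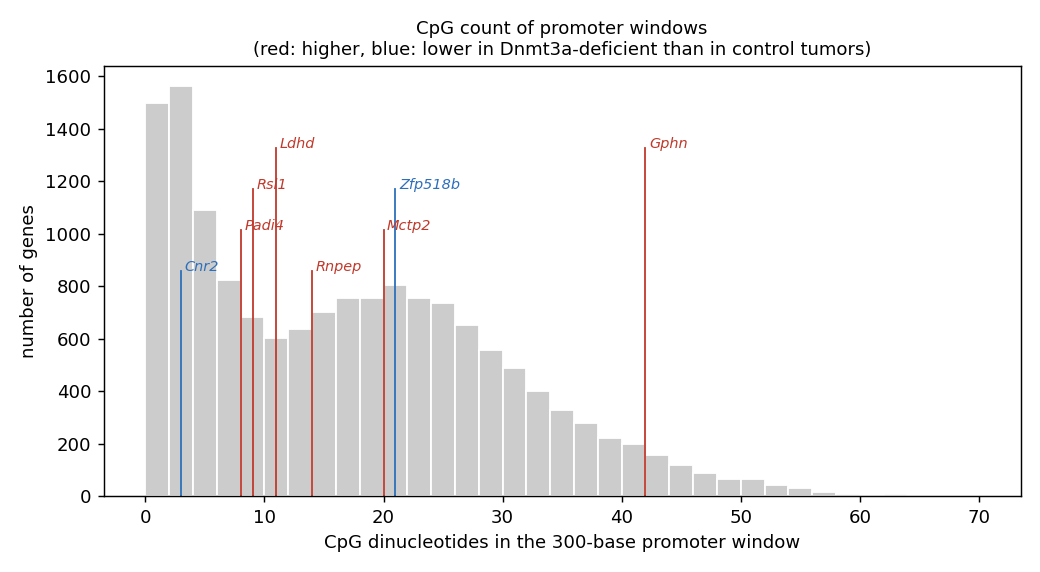
Number of CpG dinucleotides in the 300-base promoter window (horizontal axis) for 15151 tested genes, as a histogram (vertical axis: number of genes). Lines mark the 8 genes with a window, red for those higher and blue for those lower in Dnmt3a-deficient than in control tumors; they run from Cnr2 at 3 to Gphn at 42 CpGs.

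Of the 3 enzymes, Padi4 and Ldhd were high in deficient tumors alone, and Rnpep was low in control tumors alone. Padi4 encodes peptidylarginine deiminase 4, which turns arginine into citrulline in proteins, histones among them, and is best known from neutrophil extracellular traps. It read 9.40, 8.51, 8.71 and 7.41 in deficient tumors 1 to 4, against 5.91, 6.01, 6.32, 6.92 and 6.32 in control tumors 1 to 5 and 5.85, 6.42 and 6.17 in normal thymocytes 1 to 3. Deficient tumor 4 was the lowest of its group and came within 0.50 of control tumor 4, the highest of the controls. The means were 8.51 ± 0.82 in deficient tumors (SD, n = 4) and 6.29 ± 0.39 in control tumors (SD, n = 5), a log2 difference of 2.21 (SE 0.32), or 4.63-fold. Against normal thymocytes (6.14 ± 0.28, SD, n = 3) the deficient tumors were higher by 2.36 (SE 0.37, limma adjusted p = 2.7e-04), and the control tumors differed by 0.15 (SE 0.35, limma adjusted p = 0.799). The neutrophil markers went the other way, with a median difference of -0.75 between deficient and control tumors over 19 genes, none of them called, against -0.01 for all genes. Control tumors 3 and 4, with the highest neutrophil markers, read 6.32 and 6.92 for Padi4, and the difference was 2.43 without them. Which cells the Padi4 RNA came from was not tested.

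Ldhd encodes the mitochondrial D-lactate dehydrogenase, which clears D-lactate formed from methylglyoxal. Its levels were 7.90, 7.93, 8.09 and 8.60 in deficient tumors 1 to 4, against 6.84, 6.86, 5.76, 6.07 and 6.45 in control tumors 1 to 5 and 6.18, 6.54 and 6.38 in normal thymocytes 1 to 3. The deficient tumors stood clear of all other arrays, by 1.04 from the nearest control tumor, number 2. They exceeded control tumors by 1.73 (SE 0.23) and normal thymocytes by 1.76 (SE 0.26, limma adjusted p = 2.0e-04), while control tumors differed from normal thymocytes by 0.03 (SE 0.25, limma adjusted p = 0.947). The spread within the control tumors ran from 5.76 in number 3 to 6.86 in number 2 and held all 3 normal arrays.

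Rnpep encodes aminopeptidase B, which removes arginine and lysine from the amino end of peptides. It read 8.51, 8.55, 9.17 and 9.23 in deficient tumors 1 to 4, against 7.21, 7.53, 5.73, 6.02 and 6.62 in control tumors 1 to 5 and 8.74, 8.60 and 8.09 in normal thymocytes 1 to 3. Deficient tumors and normal thymocytes overlapped, and every control tumor lay below both. Control tumors were lower than normal thymocytes by a log2 difference of -1.85 (SE 0.36, limma adjusted p = 0.00216), or 3.61-fold, called in all 22 alternatives. Deficient tumors differed from normal thymocytes by 0.39 (SE 0.38, limma adjusted p = 0.447), and from control tumors by 2.24 (SE 0.33). Control tumors 3 and 4 held the lowest readings, and without them control tumors still differed from normal thymocytes by -1.36 (SE 0.28, limma adjusted p = 0.00510).

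Among the proteins of membranes and receptors, Gphn and Mctp2 were higher in deficient tumors and Cnr2, Shisa6 and Palmd were lower. Gphn encodes gephyrin, which completes the molybdenum cofactor in all tissues and anchors glycine and GABA receptors at inhibitory synapses. Its readings were 9.13, 8.88, 9.28 and 9.34 in deficient tumors 1 to 4, against 7.57, 8.29, 6.62, 5.71 and 6.85 in control tumors 1 to 5 and 7.18, 7.31 and 7.30 in normal thymocytes 1 to 3. The deficient tumors were tight (SD 0.21) and the control tumors wide (SD 0.98), with control tumor 2 at 0.58 below the lowest deficient tumor. The call between deficient and control tumors ended in 10 of 23 alternatives. Deficient tumors exceeded control tumors by 2.15 (SE 0.38) and normal thymocytes by 1.89 (SE 0.43, limma adjusted p = 0.00414). Control tumors differed from normal thymocytes by -0.26 (SE 0.41, limma adjusted p = 0.700), with values on both sides of the normal arrays. Without control tumors 1 and 2 that difference was -0.87 (limma adjusted p = 0.0224), and without control tumors 3 and 4 it was 0.31 (limma adjusted p = 0.483).

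Mctp2 encodes a membrane protein with several C2 domains, which bind calcium. It read 6.0, 6.53, 6.51 and 6.19 in deficient tumors 1 to 4, against 4.74, 5.04, 5.52, 4.89 and 4.75 in control tumors 1 to 5 and 5.72, 5.30 and 5.25 in normal thymocytes 1 to 3. Lower quartiles of the arrays were 5.09 to 5.32 and medians 6.40 to 6.58, so Mctp2 lay below the array's median on all but deficient tumors 2 and 3. Values near the lower quartile, as in control tumors, compress differences on arrays. Deficient tumors lay above all others, with normal thymocytes 1 the nearest of all arrays and control tumor 3, at a gap of 0.48, the nearest control tumor. They exceeded control tumors by 1.32 (SE 0.19) and normal thymocytes by 0.89 (SE 0.21, limma adjusted p = 0.00528). Control tumors differed from normal thymocytes by -0.43 (SE 0.20, limma adjusted p = 0.141), which became a call without control tumor 3 (-0.57, limma adjusted p = 0.0365).

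Cnr2 encodes the cannabinoid receptor CB2, an inhibitory G protein-coupled receptor of immune cells. It read 5.79, 5.34, 5.10 and 5.76 in deficient tumors 1 to 4, against 7.01, 6.54, 7.21, 7.08 and 7.89 in control tumors 1 to 5 and 8.10, 8.26 and 7.79 in normal thymocytes 1 to 3. Deficient tumors were lowest, control tumors in the middle and normal thymocytes highest, with control tumor 5 inside the normal range. Deficient tumors were below control tumors by -1.65 (SE 0.24) and below normal thymocytes by -2.55 (SE 0.27, limma adjusted p = 1.4e-05), a 5.87-fold difference called in all 22 alternatives. Control tumors were below normal thymocytes by -0.91 (SE 0.26, limma adjusted p = 0.0210), a call that ended in 4 of 22 alternatives. Those were the fits without control tumors 1 and 2 (limma adjusted p = 0.0703), without control tumors 3 and 4 (0.0547), without normal thymocytes 1 (0.0701) and without normal thymocytes 2 (0.0995). Markers of B cells, which also carry this receptor, averaged 5.48 to 6.04 in deficient tumors, 5.38 to 6.03 in control tumors and 5.88 to 5.97 in normal thymocytes over 13 genes.

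Shisa6 encodes an auxiliary subunit of AMPA-type glutamate receptors, known from brain. It read 5.82, 5.86, 4.81 and 4.87 in deficient tumors 1 to 4, against 7.63, 7.09, 6.47, 7.25 and 7.05 in control tumors 1 to 5 and 5.28, 5.51 and 5.26 in normal thymocytes 1 to 3. All normal arrays fell inside the range of the deficient tumors, and all control tumors lay above both groups. Control tumors were higher than normal thymocytes by 1.74 (SE 0.28, limma adjusted p = 5.7e-04), or 3.35-fold, called in all 21 alternatives. Deficient tumors differed from control tumors by -1.76 (SE 0.26) and from normal thymocytes by -0.02 (SE 0.30, limma adjusted p = 0.972). The deficient tumors came as a pair near 5.8 (1 and 2) and a pair near 4.8 (3 and 4). Numbers 3 and 4 lay below the lower quartiles of their arrays (5.14 and 5.09). The normal arrays lay near theirs (5.23 to 5.32), where arrays compress differences.

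Palmd encodes palmdelphin, a cytosolic relative of the paralemmins, which shape the plasma membrane. It read 5.46, 5.50, 5.13 and 5.60 in deficient tumors 1 to 4, against 7.48, 6.90, 9.20, 9.49 and 6.89 in control tumors 1 to 5 and 4.91, 5.09 and 5.63 in normal thymocytes 1 to 3. Control tumors 3 and 4 stood highest and were also the arrays with high neutrophil markers. Control tumors exceeded normal thymocytes by 2.78 (SE 0.53, limma adjusted p = 0.00187), or 6.87-fold, called in all 21 alternatives, and by 1.88 (SE 0.23, limma adjusted p = 2.3e-04) without control tumors 3 and 4. Deficient tumors differed from control tumors by -2.57 (SE 0.49), or -1.67 without control tumors 3 and 4, and from normal thymocytes by 0.21 (SE 0.56, limma adjusted p = 0.799). Normal thymocytes 1 and 2 and deficient tumor 3 lay below the lower quartiles of their arrays (5.23, 5.32 and 5.14), where arrays compress differences. The other deficient and normal arrays lay not far above theirs. With an SD of 1.26 in control tumors and 0.20 in deficient tumors, the control tumors varied more among themselves than the deficient tumors did. The call between deficient and control tumors ended in 11 of 22 alternatives.

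The 2 zinc finger genes went opposite ways. Rsl1 encodes a KRAB zinc finger repressor named in mice for holding down genes that male liver expresses. It read 6.96, 8.42, 7.55 and 8.42 in deficient tumors 1 to 4, against 5.81, 5.85, 5.96, 4.59 and 6.20 in control tumors 1 to 5 and 5.82, 5.72 and 5.55 in normal thymocytes 1 to 3. Every deficient tumor lay above every other array, deficient tumor 1 the closest at 0.76 above control tumor 5, and the control tumors held all normal arrays in their range. Deficient tumors exceeded control tumors by 2.16 (SE 0.34) and normal thymocytes by 2.14 (SE 0.39, limma adjusted p = 8.6e-04), while control tumors differed from normal thymocytes by -0.02 (SE 0.37, limma adjusted p = 0.982). Related zinc finger genes lie beside Rsl1, and whether their transcripts reach its probes was not tested.

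Zfp518b encodes a zinc finger protein whose human counterpart binds the histone methyltransferases G9a and EZH2. It read 5.71, 5.58, 5.33 and 5.38 in deficient tumors 1 to 4, against 6.58, 6.52, 6.80, 6.96 and 6.30 in control tumors 1 to 5 and 5.77, 6.16 and 6.03 in normal thymocytes 1 to 3. The normal thymocytes lay between the tumor groups and touched neither. Deficient tumors were below control tumors by -1.13 (SE 0.15), the smallest of the 10 differences. Against normal thymocytes, control tumors were higher by 0.64 (SE 0.17, limma adjusted p = 0.0128), a call that ended without control tumors 3 and 4 (limma adjusted p = 0.0569) and without normal thymocytes 1 (limma adjusted p = 0.0713). Deficient tumors were lower by a log2 difference of -0.49 (SE 0.18, limma adjusted p = 0.0428), and this call ended in 9 of 21 alternatives (limma adjusted p up to 0.270, after cyclic loess). Zfp518b in deficient tumors, at 5.50 ± 0.18 (SD, n = 4), was also close to the lower quartile of the arrays.

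Against normal thymocytes, deficient tumors were called for 7 of the 10 genes, 5 higher and 2 lower, where 37.6% of all genes were called. The groups did not overlap for 7 of the 10, with 5 above and 2 below, against 49.7% of all genes (23.0% above and 26.7% below). Control tumors were called for 5 of the 10 against normal thymocytes, 3 higher and 2 lower, where 24.4% of all genes were called. Their groups did not overlap for 4 of the 10, against 27.7% of all genes. The tumor arrays were used in picking the genes, and the normal arrays entered the fit behind the calls between tumors. Both contrasts with normal thymocytes share the same 3 normal arrays.

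Set against normal thymocytes, the 10 genes fell into 5 patterns. Padi4, Ldhd, Mctp2, Rsl1 and Gphn were called higher in deficient tumors and not called in control tumors, a pattern shown by 54 of the 114 genes (47.4%) that were higher in deficient than in control tumors. Rnpep was not called in deficient tumors and lower in control tumors, as were 22 of the 114 (19.3%). Shisa6 and Palmd were not called in deficient tumors and higher in control tumors, as were 14 of the 44 genes (31.8%) that were lower in deficient than in control tumors. Cnr2 was lower in both tumor groups, as were 17 of the 44 (38.6%). Zfp518b was the single gene of the 44 that was lower in deficient and higher in control tumors.

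**Figure D3:**
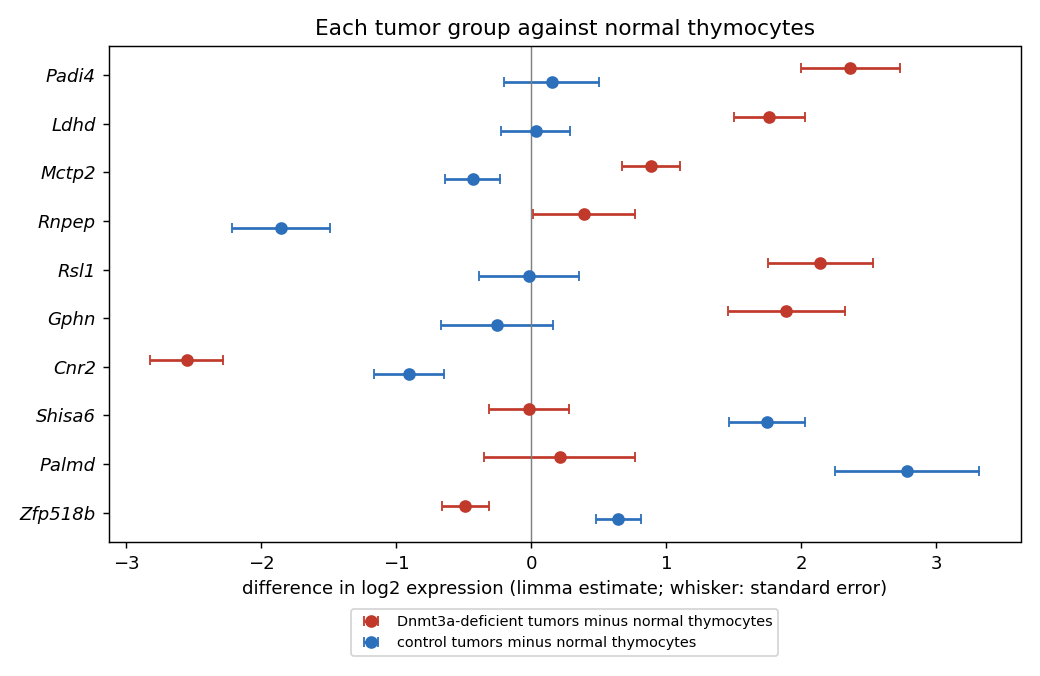
Difference in log2 expression from normal thymocytes (horizontal axis, limma estimate with its standard error) for each gene, in Dnmt3a-deficient tumors (red, upper point) and control tumors (blue, lower point). Blue points lie near 0 for Padi4, Ldhd, Rsl1 and Gphn, and red points lie near 0 for Rnpep, Shisa6 and Palmd.

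Among themselves, the genes that separated the tumor groups in the same direction correlated positively over the 12 arrays, which the way they were picked favours. Cnr2 did so only weakly with Palmd (r = 0.17) and with Shisa6 (r = 0.25). The Pearson r was 0.45 to 0.93 for the 15 pairs of higher genes and 0.17 to 0.87 for the 6 pairs of lower genes, and -0.94 to -0.34 for the 24 mixed pairs. The closest pair was Ldhd and Gphn (0.93), and the most opposed were Rnpep and Palmd (-0.94). Deficient tumor 1 was the deficient array nearest to the controls for 6 of the 10 genes, and deficient tumor 3 for none. On the control side the nearest array was number 2 for 4 genes, number 5 for 3, number 3 for 2 and number 4 for 1. Control tumor 1, which resembled the deficient tumors over all genes, was the nearest for none of the 10.

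The genes whose pattern over the 12 arrays was most like each member were taken by Pearson r among all other genes, as a description. Palmd went with Etv5 (r = 0.981), an ETS transcription factor, and with Rhob (0.973), a small GTPase. Gphn went with Ncln (0.979) and with the cell cycle factor E2f4 (0.976). Rnpep had Zbtb8a (0.966) and Celsr2 (0.966), Cnr2 had Grcc10 (0.966) and Narf (0.960), and Ldhd had Nme3 (0.965) and Tjp3 (0.955). Shisa6 had Dennd3 (0.944) and Zbtb10 (0.895), Mctp2 had the small nucleolar RNA Rnu3a (0.926) and Gadd45b (0.893), and Rsl1 had Syce2 (0.922) and Mrpl46 (0.903). Padi4 had the chaperone Hyou1 (0.917) and the MHC class II chain H2-Eb1 (0.903), and Zfp518b had Gng2 (0.916) and the glucose transporter Slc2a3 (0.912).

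The nearest 2 measured genes on each side of every member, 40 in all, were then compared between deficient and control tumors. None of the 40 was called by limma, and 10 had an unadjusted p under 0.05, against 20.2% of all genes. Their median absolute difference was 0.20, as it was for all genes, and the largest was 0.83 at Frrs1, beside Palmd, in the direction opposite to Palmd. The sign matched that of the member for 21 of the 40. Padi4 lies among its paralogs, and Padi6 (-0.21), Padi3 (0.32) and Padi1 (-0.37) on either side of it were not called. Rsl1 and Gphn had all 4 neighbours on the same side as themselves, though Fut8 beside Gphn differed by only 0.0014. Mctp2 had all 4 on the opposite side, though B130024G19Rik differed by only -0.00094 and Chd2 by -0.042. At Rsl1 they were the zinc finger genes Zfp708 (0.79, SE 0.23, limma adjusted p = 0.112), Zfp759 (0.67, SE 0.28), Zfp455 (0.12, SE 0.19) and Zfp458 (0.55, SE 0.27), and none was called. All neighbours named here were chosen after their values were seen.

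**Figure D4:**
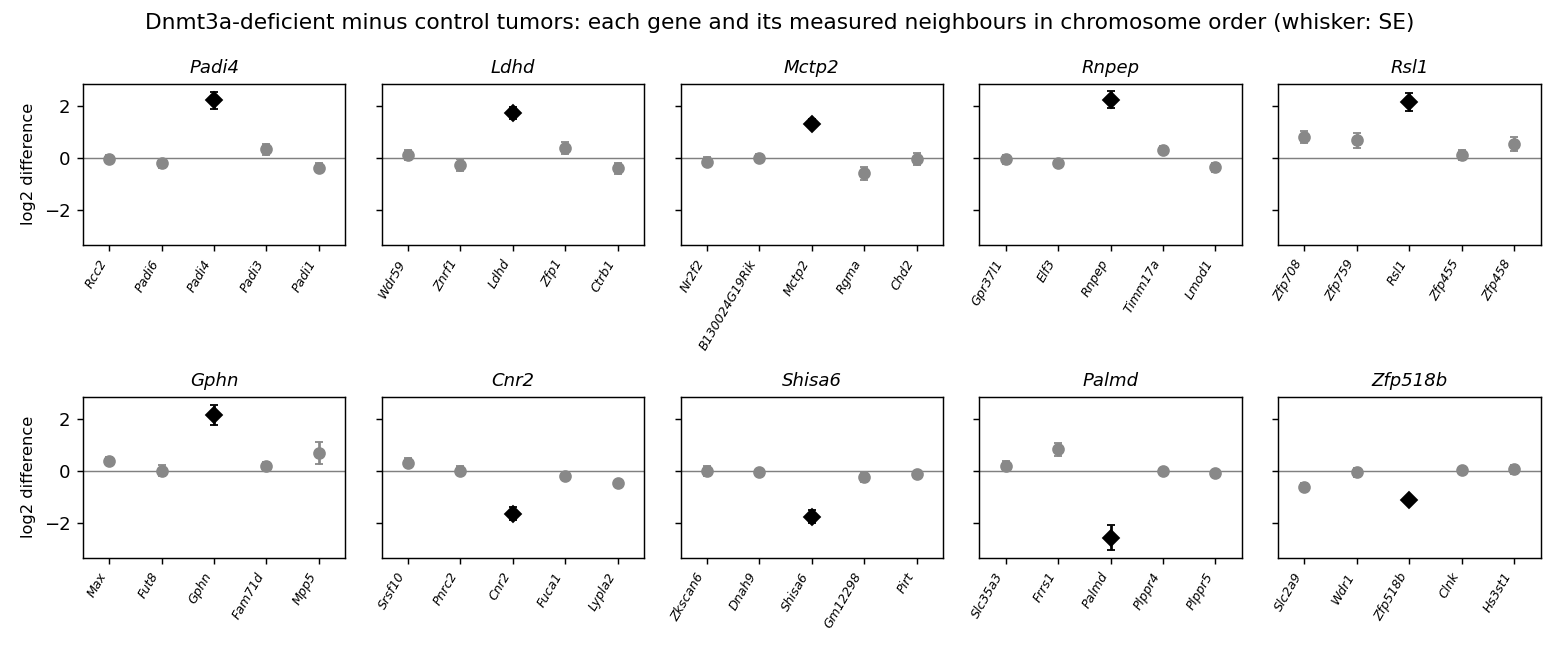
Difference in log2 expression between Dnmt3a-deficient and control tumors (vertical axis, limma estimate with its standard error) for each of the 10 genes (black diamond) and its 2 nearest measured genes on each side in chromosome order (grey points). None of the 40 neighbours was called, and they lie between -0.62 and 0.83.

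Families and pathways around the 10 genes gave 2 calls among 114 listed genes between deficient and control tumors, Sytl2 and Palm, where 0.818% of all genes were called. The counts are near that share and say nothing particular about the families. Of the other deiminases, 0 of 4 were called, with Padi1 at the smallest p (-0.37, limma adjusted p = 0.223). Of 11 lactate and methylglyoxal enzymes and carriers none was called, with the monocarboxylate carrier Slc16a1 at 0.63 (limma adjusted p = 0.112). In the set of 13 C2 domain proteins the vesicle protein Sytl2 was lower by 1.36 (SE 0.28, limma adjusted p = 0.0456), opposite to Mctp2. None was called higher. Sytl2 averaged 6.145 in deficient tumors, 7.51 in control tumors and 5.95 in normal thymocytes. From normal thymocytes, control tumors differed by 1.56 (limma adjusted p = 0.00196) and deficient tumors by 0.20 (limma adjusted p = 0.659). None of 8 aminopeptidases of Rnpep's family was called, with Rnpepl1 at 0.35 (limma adjusted p = 0.260), and none of 16 molybdenum cofactor genes and gephyrin partners, with Mocs2 at -0.53 (limma adjusted p = 0.138). The 15 other genes of the endocannabinoid system had no call, with the carrier Fabp5 at 1.01 (limma adjusted p = 0.138). The 20 other genes of the Shisa family and of AMPA receptors had none either, with Shisa7 at 1.26 (limma adjusted p = 0.103). Among 8 genes of the G9a complex and of the EZH2 complex (Ezh2, Eed and Suz12) none was called, with Zfp518a at 0.89 (limma adjusted p = 0.171). Palm, the founding paralemmin, rose by 1.29 (SE 0.28, limma adjusted p = 0.0491), at 8.46 ± 0.62 in deficient tumors (SD, n = 4), 7.16 ± 0.45 in control tumors (SD over 5 arrays) and 7.48 ± 0.07 in normal thymocytes, opposite to Palmd, while Palm3 differed by 0.01.

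No zinc finger gene of the Rsl1 region was called between deficient and control tumors. The list, with their corepressor Trim28 added, had 17 of 23 genes measured, and its median difference was 0.41, against -0.01 for all genes, with Zfp456 at the smallest p (0.69, SE 0.17, limma adjusted p = 0.0775). Against normal thymocytes 10 of the 17 were called higher and 1 lower in deficient tumors, and 7 higher and none lower in control tumors. The gene called lower was Trim28 (-0.51, limma adjusted p = 0.0264), which is no member of the cluster. All genes were called higher at 18.7% and lower at 19.0% in the deficient contrast, and at 13.0% and 11.3% in the control contrast. Zfp456 averaged 6.58 ± 0.37 in deficient tumors (SD, n = 4), 5.89 ± 0.15 in control tumors (SD over 5 arrays) and 5.77 ± 0.24 in normal thymocytes (SD over 3 arrays).

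Of 22 genes of the DNA methylation machinery, Gadd45b rose (1.80, SE 0.24, limma adjusted p = 0.0144) and Dnmt3a fell (-1.25, SE 0.23, limma adjusted p = 0.0317) in deficient against control tumors. The call on Dnmt3a rests on the same fit as the 10 genes. Dnmt3b, the other de novo enzyme, differed by 0.63 (SE 0.20, limma adjusted p = 0.127), Dnmt1 by 0.25 (SE 0.13, limma adjusted p = 0.311) and Dnmt3l by -0.12 (SE 0.14, limma adjusted p = 0.651). Among markers of cell types, the T lineage factor Gata3 fell by 1.08 (SE 0.18, limma adjusted p = 0.0197), and the B cell receptor chain Cd79b rose by 1.63 (SE 0.21, limma adjusted p = 0.0144). The thymic epithelium marker Cldn4 was higher in deficient than in control tumors by 1.38 (SE 0.22, limma adjusted p = 0.0193). For Cldn4, control tumors differed from normal thymocytes by -1.64 (limma adjusted p = 2.7e-04) and deficient tumors by -0.26 (limma adjusted p = 0.449). Between deficient and control tumors, Gata3, Cd79b and Cldn4 were each the single call in their lists, of 14, 13 and 11 genes. The other genes of each list went both ways, and the list medians were -0.20, 0.09 and 0.15. Lists of neutrophils, macrophages, dendritic cells, erythroid cells, fibroblasts and endothelium, adipocytes and NK cells had no call between deficient and control tumors.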

How the data were processed

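The 12 arrays each measured total RNA in 1 channel. Each deposited value is the log2 signal of a probe set, which the authors obtained by RMA. The submitters' processing notes name Affymetrix Expression Console, without a version. Upper quartiles of the deposited arrays differ (8.13 to 8.60), so whether all arrays were normalized together is not known. They were 8.50 to 8.60 in deficient tumors and 8.545 and 8.51 in control tumors 1 and 2. Control tumors 3, 4 and 5 had 8.30, 8.25 and 8.25, and normal thymocytes 8.13 to 8.21. The quartiles thus differ along with the groups compared, and their part in the calls was not tested beyond the other scalings. Of 23858 probe sets, 20870 had 1 gene symbol, 1453 several and 1535 none. The brightest single-symbol probe set per gene gave 19309 genes, without a filter on dim genes. Arrays have no read depth: precision depends on how many there were.

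A single model in limma 3.58.1 (R 4.3.3) held a mean for each group over all arrays (9 residual and 4.17 prior degrees of freedom), and p-values were adjusted by Benjamini-Hochberg over 19309 genes, with calls under 0.05. Differences are log2 values of the first-named group minus the second. Groups came from the sample titles. The steps were tested on simulated data. The 10 genes, the lists and the tests were chosen with earlier results of these data known. Named beside the 10 genes are Dnmt genes, called list members (or the one with the smallest p), and the 2 genes most alike by Pearson r. No neighbour was called, and those named, like Trim28, Ezh2, Eed and Suz12, were chosen after their values were seen. Coordinates and promoters are RefSeq's on GRCm38.p6, where 19267 genes matched. Alternatives were other scalings, filters and fits, and arrays left out.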

Additional observations from a re-analysis of the deposited data

Results flagged for a closer look

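Rsl1 in control tumor 4 read 4.59, with the next lowest control tumor at 5.81, a gap of 0.757 of the range of the 5 control tumors, above Dixon's critical value of 0.71. Dnmt3a in control tumor 5 read 9.57, with the next highest control tumor at 8.58, a gap of 0.716 of the range, also above 0.71. Both came from 22 groups of arrays tested (10 genes and Dnmt3a in deficient and in control tumors), and chance alone flags about 1 in 20 groups. Both readings lay at the end of the control range that is away from the deficient tumors. Without control tumor 4, Rsl1 differed by 0.26 between control tumors and normal thymocytes, with no call (limma adjusted p = 0.584).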

How the results depend on the processing

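All 10 genes kept the sign of their difference between deficient and control tumors in every alternative run. Leaving out or weighting arrays could not turn it, since the tumor groups do not overlap for these genes. Of 225 values of this difference, 187 kept the call. Most losses were of Palmd (11 of 22 alternatives) and Gphn (10 of 23). The number of calls did not hold. Over all genes, 158 were called between deficient and control tumors, against 1 with tumors alone, 306 after median centring, 102 after a second quantile normalization, 104 with the replicate block, 3328 with array weights, 4886 without control tumors 1 and 2, and 6 without control tumors 3 and 4. Leaving out 1 array at a time gave 16 (without deficient tumor 4) to 1482 (without control tumor 2), 1012 without control tumor 1, and 28 and 36 on leaving out number 3 or 4 of the controls. On leaving out number 1 or 3 of the deficient tumors it gave 102 and 33, and on leaving out number 1, 2 or 3 of the normal arrays 51, 52 and 54. Median centring gave 258 higher and 48 lower, the second quantile normalization 57 and 45, cyclic loess 86 and 56, and the replicate block 56 and 48. Against normal thymocytes the calls over all genes ranged from 5409 to 7652 in deficient tumors and from 3199 to 5074 in control tumors with 1 array left out.

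Of the 10 genes, 0 were called between deficient and control tumors with tumors alone, 3 without control tumors 3 and 4, and 5 to 10 with 1 array left out (5 without deficient tumor 4). Against normal thymocytes 6 to 7 were called in deficient tumors and 3 to 6 in control tumors with 1 array left out (3 without normal thymocytes 1), and 3 in control tumors without control tumors 3 and 4. Without the dimmest 50% of genes, 5, 4 and 2 were called in the 3 contrasts, since Mctp2, Rsl1, Shisa6, Palmd and Zfp518b were no longer tested. Signs turned only where no difference was called. Deficient tumors minus normal thymocytes gave, for Shisa6, 0.018 after median centring, 0.12 after quantile normalization, 0.21 after loess, 0.038 with the replicate block and -0.19 to 0.16 with 1 array left out, and for Palmd -0.023 with the block. Control tumors minus normal thymocytes gave, for Rsl1, 0.080 after quantile normalization, 0.11 after loess, 0.26 without control tumors 3 and 4 and -0.15 to 0.26 with 1 array left out. For Ldhd they gave -0.0085 with the block, -0.11 with array weights, -0.27 without control tumors 1 and 2 and -0.084 to 0.19 with 1 array left out. Padi4 gave -0.065 without control tumors 3 and 4 and -0.0039 to 0.29 with 1 array left out, and Gphn 0.31 and -0.58 to 0.069. Whether replicate numbers pair the arrays cannot be settled with so few arrays. Deviations of same-numbered deficient and control tumors correlated at -0.13 to 0.34. The highest was for number 1, where control tumor 1 was the best match of deficient tumor 1. For numbers 2 to 4 the best match carried another number. The replicate block called 9 of the 10 genes, all but Gphn. The causes of these changes were not tested. Some settings also hold fewer arrays or genes, and the part this plays was not tested either.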
